A study of Mus musculus with 6 samples.

Results

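The Roundabout (Robo) receptors, their secreted Slit ligands and the srGAP proteins that act below the receptors were followed as 10 genes, Robo1 to Robo4, Slit1 to Slit3 and Srgap1 to Srgap3, in RNA sequencing of mouse brain. They were taken by gene symbol from a table of 43346 rows, each matched exactly 1 row, and all 10 were among the 15127 genes with enough reads to be tested. The set was chosen by family membership around Robo3, which was itself selected on its raw counts in deficient against wild-type mice as the strongest fall, so the differences of these 10 genes between genotypes are given as a description and support nothing by themselves. The study compared 3 adult male mice labelled Kdm5c deficient with 3 adult male wild-type littermates. All 6 came from a heterozygous Kdm5c deficient mother on the C57BL/6 background and a wild-type 129 father, so that each mouse had an equal mix of C57BL/6 and 129. Kdm5c is an X-linked gene that encodes a demethylase of histone H3 lysine 4. The labels do not describe the allele, the dissected region or which cells lack the protein, and name the tissue as brain.

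Slit proteins are large secreted molecules that repel growing axons and migrating neurons when they bind Robo receptors, a family of transmembrane proteins of the immunoglobulin superfamily. The srGAPs bind the cytoplasmic part of Robo, bend membranes and switch off small GTPases that control the actin cytoskeleton, and Srgap2 is also known for its role in the maturation of dendritic spines. Robo3 is the exception among the receptors: in the mouse it allows commissural axons to cross the midline, does not bind Slits with high affinity, and is best known from embryonic hindbrain and spinal cord. Robo4 is known mainly from blood vessels.

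The promoters of 3 genes are shown because histone H3 lysine 4 methylation, the mark that Kdm5c removes, is typically found at promoters rich in CG dinucleotides: Robo3 and Srgap1, the members past the threshold below, and Robo4, the neighbour of Robo3. Each window runs from 250 bases before to 50 bases after the annotated start, 5′ to 3′, from RefSeq on GRCm38.p6, with CG dinucleotides in capitals.
Robo3, chr9:37433126-37433425, minus strand: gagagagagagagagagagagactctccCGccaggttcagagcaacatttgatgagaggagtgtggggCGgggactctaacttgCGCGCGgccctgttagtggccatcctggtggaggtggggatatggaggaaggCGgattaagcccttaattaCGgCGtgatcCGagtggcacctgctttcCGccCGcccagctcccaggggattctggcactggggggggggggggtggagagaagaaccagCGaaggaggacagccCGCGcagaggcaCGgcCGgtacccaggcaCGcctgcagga
Robo4, chr9:37401722-37402021, plus strand: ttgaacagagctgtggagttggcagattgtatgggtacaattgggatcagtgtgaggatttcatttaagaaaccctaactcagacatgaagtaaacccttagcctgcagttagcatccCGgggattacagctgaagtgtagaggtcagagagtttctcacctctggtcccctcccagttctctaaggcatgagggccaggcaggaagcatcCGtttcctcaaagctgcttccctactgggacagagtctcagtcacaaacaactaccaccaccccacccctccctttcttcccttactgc
Srgap1, chr10:122047266-122047565, minus strand: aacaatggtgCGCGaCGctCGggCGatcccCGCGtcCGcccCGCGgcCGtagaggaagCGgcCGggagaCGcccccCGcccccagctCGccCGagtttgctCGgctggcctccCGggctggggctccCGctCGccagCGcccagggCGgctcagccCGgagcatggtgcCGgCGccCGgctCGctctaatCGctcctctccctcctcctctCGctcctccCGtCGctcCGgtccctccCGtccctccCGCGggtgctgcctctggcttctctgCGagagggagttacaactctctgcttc
The Robo3 window held 17 CG dinucleotides, the Robo4 window 2 and the Srgap1 window 37, against a median of 7 over 32851 promoter windows. The table held 11 windows for 9 of the 10 genes (Slit1 had no entry), with 2 to 41 CG dinucleotides. Slit3 had the 41, and Robo1 and Srgap2 had 15 and 17. The E-box CACGTG, which reads alike on both strands, was in 1 of the 11 windows, at an upstream start of Robo2, and in 7.15% of all windows. The letters TTCCCGC, searched on both strands, were in 0 of the 11 and in 4.6% of all windows.

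The libraries held 20221675 to 24555412 counts, and no pair of mice of one genotype agreed within sampling noise (chi-square per gene from 3.42 to 16.7). Kdm5c itself had 73.9, 65.5 and 78.9 CPM (counts relative to the scaled library total) in the deficient mice, against 77.6, 82.8 and 84.0 CPM in the wild-type mice. The genotypes overlapped, at a log2 fold change of -0.16 ± 0.07 (SE, n = 3 each). Without deficient mouse 2 it was -0.092, and the fits without 1 mouse ran from -0.23 to that value. The quasi-likelihood test of edgeR with all mice gave a Benjamini-Hochberg adjusted p of 0.196. A two-sided exact permutation test gave p = 0.2, where 0.1 is the smallest possible. Counts over the whole gene cannot show a partial deletion, so the genotype labels were not checked by it. Neuronal markers were abundant, and their 7 genes summed to 6803 to 7749 CPM in deficient and 6606 to 7068 CPM in wild-type mice. Markers of the cerebellum differed between mice: their 10 genes summed to 1131, 155.2 and 827.0 CPM in deficient mice 1, 2 and 3, against 1246, 1307 and 1398 CPM in wild-type mice. Markers of oligodendrocytes (5 genes) summed to 4953 to 6314 CPM in deficient and 6499 to 7351 CPM in wild-type mice, and 5 microglial markers to 146.6 to 166.6 CPM in deficient and 134.9 to 140.1 CPM in wild-type mice. The genotypes did not overlap in these 3 sums and overlapped in the other 7 lists. Among the 7, markers of the olfactory bulb and newborn neurons stood highest in deficient mouse 3. In a bulk sample, fewer cells of a type and less RNA per cell cannot be told apart.

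Robo3 RNA was 3.09-fold lower in deficient than in wild-type brain. It had 145, 174 and 178 reads, or 6.82, 7.30 and 8.19 CPM, in the deficient mice, against 619, 464 and 485 reads, or 25.1, 22.7 and 21.2 CPM, in the wild-type mice. The genotypes were far apart, with the highest deficient mouse well below the lowest wild-type mouse and little spread within either. The means were 7.44 ± 0.70 CPM in deficient and 23.0 ± 1.94 CPM in wild-type mice (SD, n = 3 each), a log2 fold change of -1.63 ± 0.10 (SE). Of the 15127 genes tested, 3 had a more negative fitted fold change. In the authors' deposited table, whose log2 values run as wild type over deficient, Robo3 had a log2 value of 1.35. It ranked 1 there by fold change and by Wald score. The deposited value is smaller in size than the -1.63 that DESeq2 gave here, and the reason was not tested. Ranks from the deposited values and from the fit here are therefore not alike. The fall of Robo3 is what led to the choice of these genes.

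The Robo3 difference did not rest on 1 mouse. Its log2 fold change lay between -1.70 and -1.56 when each mouse was left out in turn. It passed an adjusted p of 0.05 by edgeR in all 6 of these fits. They reuse the counts on which Robo3 was chosen, so these calls add no support. Deficient mouse 2, which had the low cerebellar markers, lay between the other deficient mice in Robo3, and without it the value was -1.61. In deficient mouse 1, where the cerebellar markers were closest to wild type, Robo3 was at its lowest. Markers of the medial habenula, a small nucleus of commissural neurons in the epithalamus, summed to 33.5 to 35.0 CPM in deficient and 27.4 to 35.3 CPM in wild-type mice over 9 genes, so that their genotypes overlapped. Pou4f1, a transcription factor that defines these neurons, had 66, 55 and 35 reads in deficient and 92, 94 and 37 reads in wild-type mice, and Chrnb4, a nicotinic receptor subunit enriched there, had 22, 32 and 47 reads in deficient and 45, 32 and 34 reads in wild-type mice. The genotypes did not overlap in 2 genes of that list, which went in opposite directions. Gpr151, an orphan receptor gene, had 62, 98 and 95 reads in deficient and 51, 38 and 24 reads in wild-type mice (log2 fold change 1.19 ± 0.26, SE, adjusted p = 0.0385 by edgeR). Gng8, a G protein subunit gene, had 18, 22 and 13 reads in deficient and 36, 23 and 26 reads in wild-type mice (log2 fold change -0.65 ± 0.25, SE, adjusted p = 0.148 by edgeR). These 4 habenular genes were named after their values were seen. The log2 fold changes of Pou4f1 and Chrnb4 were -0.50 and -0.11, and neither passed. The other genes of the list overlapped and did not pass. They stood at 0.32 for Chrna3, 0.22 for Lrrc55, 0.21 for Tac2, -0.08 for Nhlh2 and -0.08 for Chrnb3. The part of cell composition in the Robo3 level was not tested further.

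**Figure D1:**
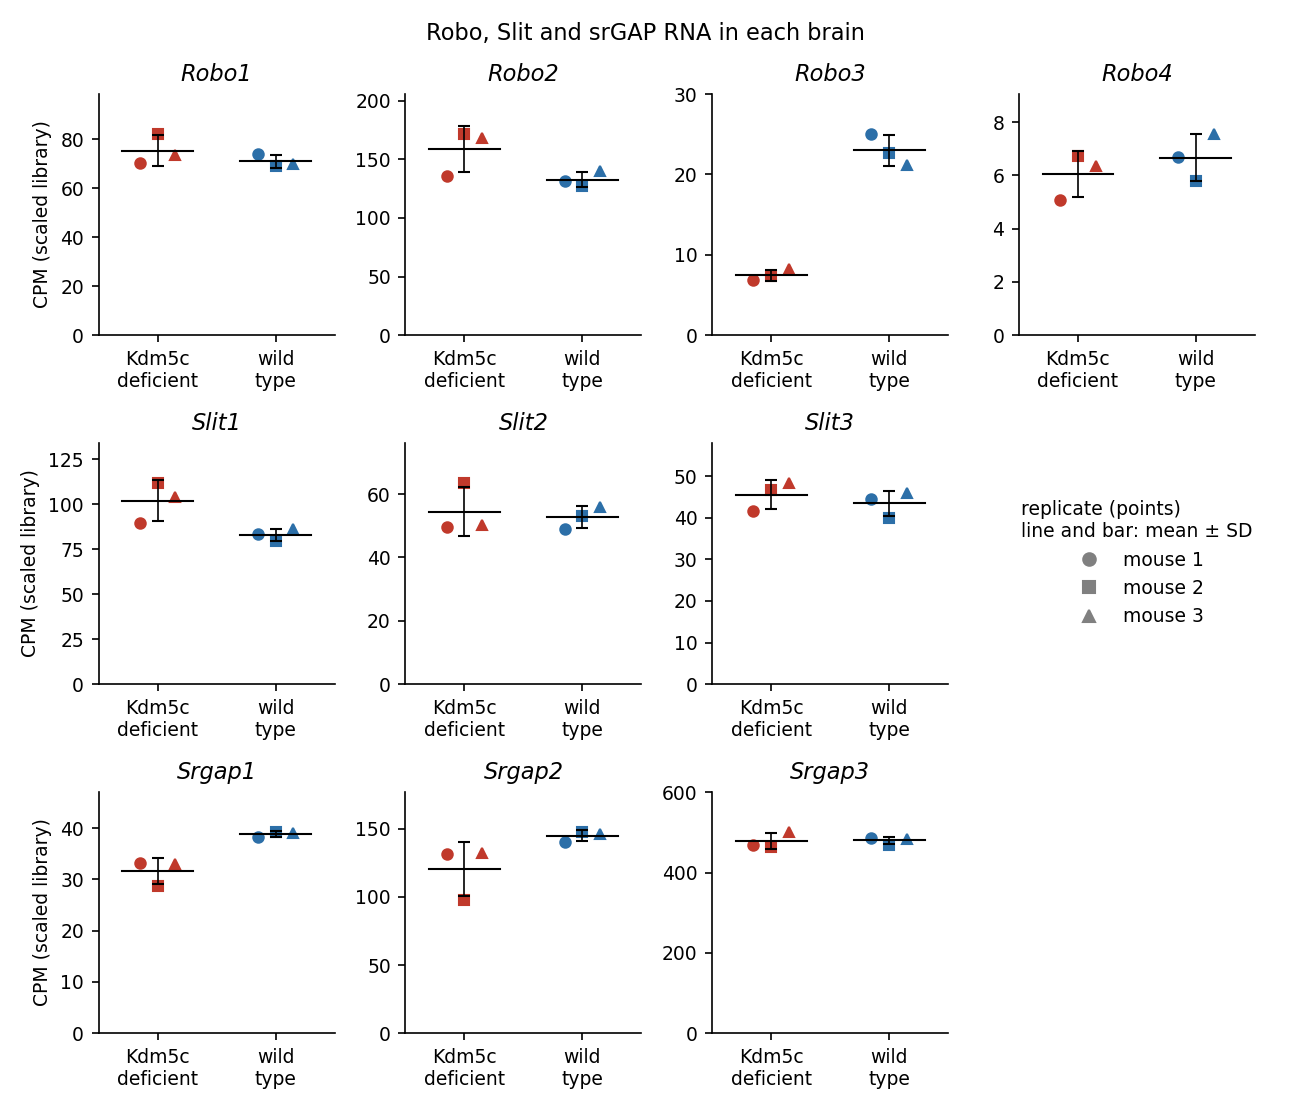
CPM of the 10 genes in each mouse, with the Kdm5c deficient mice (red) left of the wild-type mice (blue), 1 point per mouse, and mean ± SD as line and bar (n = 3 each). Robo3 sits between 6.82 and 8.19 CPM in deficient and between 21.2 and 25.1 CPM in wild-type mice, while the other panels show overlapping or neighbouring values.

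The receptors for repulsive Slit signals had no difference of that size. Robo1, the main Slit receptor of many forebrain neurons together with Robo2, had 70.2, 82.3 and 73.6 CPM in deficient mice, against 73.9, 68.9 and 70.1 CPM in wild-type mice. These values overlapped, and the log2 fold change was 0.09 ± 0.07 (SE). Robo2 had 136.0, 171.9 and 168.3 CPM in deficient mice, against 131.4, 127.2 and 139.7 CPM in wild-type mice. Deficient mice 2 and 3 lay above all wild-type mice and deficient mouse 1 lay among them, with a log2 fold change of 0.26 ± 0.09 (SE), which did not pass the threshold with all mice. Without deficient mouse 1 it was 0.36 and passed, in a fit that called 1101 genes higher, against 371 with all mice. In summed CPM, the 6 tested markers of the olfactory bulb and newborn neurons also had deficient mice 2 and 3 above all wild-type mice. Deficient mouse 1 lay among the wild-type mice. The sums were 164.5, 221.5 and 270.9 CPM in deficient mice, against 165.6, 162.9 and 184.9 CPM in wild-type mice. The log2 deviation averaged over these markers did not share this order, as deficient mouse 2 lay among the wild-type mice. It was -0.18, -0.33 and 0.93 in deficient mice, against -0.34, -0.11 and 0.03 in wild-type mice. Tbr1 was the largest of these markers in the sums, at means of 109.6 CPM in deficient and 88.8 CPM in wild-type mice. It had 1892, 3085 and 2400 reads in deficient and 2216, 1630 and 2219 reads in wild-type mice. The part of these markers in the Robo2 level was not tested.

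Robo4, the vascular member, had the fewest reads of the set, 108 to 160 in deficient and 118 to 173 in wild-type mice. Its levels were 5.08, 6.71 and 6.35 CPM in deficient mice, against 6.68, 5.77 and 7.57 CPM in wild-type mice, and the genotypes overlapped (log2 fold change -0.14 ± 0.15, SE). Over 10 endothelial markers the summed level was 218.9 to 252.3 CPM in deficient and 208.0 to 221.2 CPM in wild-type mice, which also overlapped. Robo4 is the nearest annotated neighbour of Robo3. The 2 genes lie tail to tail on chromosome 9, Robo4 at 37401897 to 37415115 on the plus strand and Robo3 at 37415669 to 37433246 on the minus strand (GRCm38), with 553 bases between their annotated ends. Within 100 kb on either side of Robo3, 5 other annotated genes were tested, and 0 passed by edgeR. At an unadjusted p of 0.05, which 24.9% of all genes passed, 1 was higher (Esam) and 1 lower (Msantd2), limma-voom called 0, and DESeq2 called Msantd2 lower, as it did 612 of all 15127 genes. Their log2 fold changes ran from -0.53 to 0.32, all smaller in size than that of Robo3. Exons of Robo3 share no base with those of another annotated gene, as for 8 of the 10 members. The exceptions were Srgap1, where 1.43% of exonic bases are shared with a gene on the same strand, and Srgap3, where 1.52% are shared with a gene on the opposite strand.

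**Figure D2:**
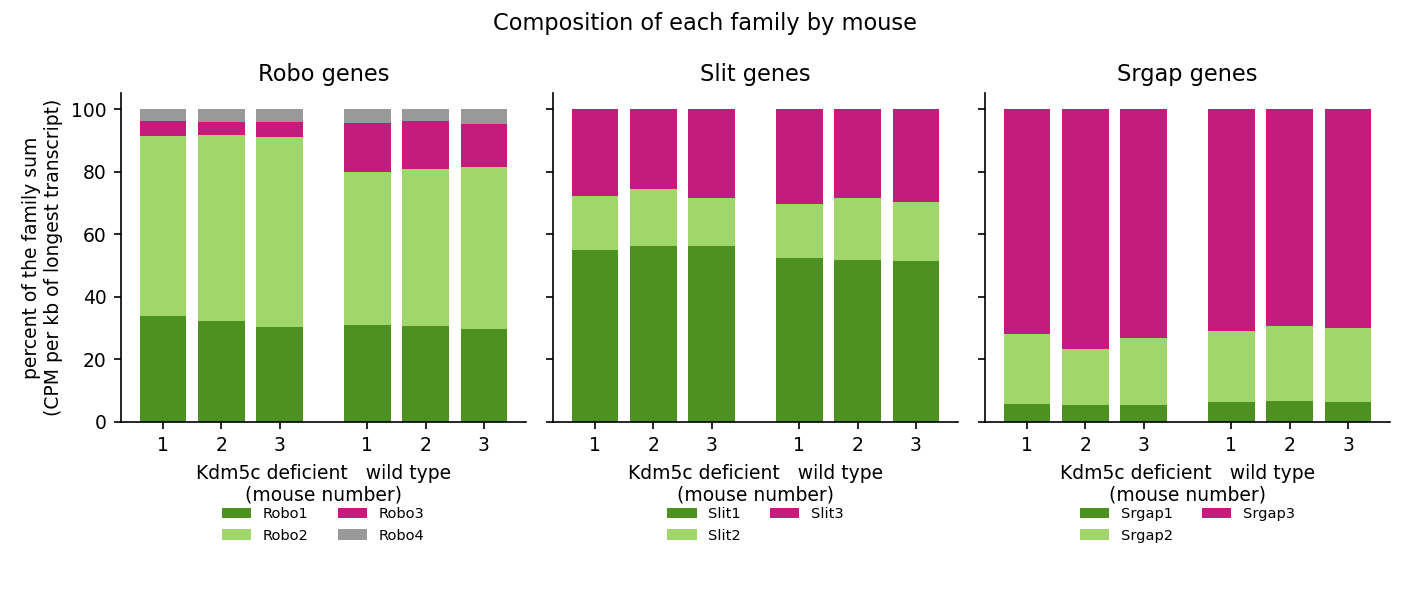
Share of each gene in the summed level of its family per mouse, in percent of CPM per kb of the longest annotated transcript, with deficient mice 1 to 3 left of wild-type mice 1 to 3. The Robo3 band takes 4.33 to 5.08% of the Robo sum in deficient and 13.6 to 15.9% in wild-type mice.

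Because the genes differ in length, the makeup of each family was described per kb of the longest annotated transcript. Robo3 made up 4.96, 4.33 and 5.08% of the summed Robo level in deficient mice, against 15.9, 15.3 and 13.6% in wild-type mice. Robo2 was the largest part, at 59.2 ± 1.60% in deficient and 50.2 ± 1.66% in wild-type mice (SD, n = 3 each). The sum itself was 27.5, 33.7 and 32.2 CPM per kb in deficient mice, against 31.4, 29.6 and 31.3 CPM per kb in wild-type mice, and the genotypes overlapped. In the plot of family shares the Robo3 band narrows in each deficient mouse and the Robo2 band widens. As these are shares of a sum, a narrower Robo3 band by itself leaves a larger share to the other Robo genes. The Slit and Srgap bands keep their order in all 6 mice.

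Among the ligands, Slit1, which is made mainly by neurons, had its higher values in the deficient mice. It had 89.8, 112.0 and 104.2 CPM in deficient mice, against 83.3, 79.4 and 86.2 CPM in wild-type mice. The genotypes did not overlap, although deficient mouse 1 came close to wild-type mouse 3. The means were 102.0 ± 11.3 CPM in deficient and 83.0 ± 3.39 CPM in wild-type mice (SD, n = 3 each), with a log2 fold change of 0.30 ± 0.08 (SE). It did not pass by edgeR and passed by DESeq2, without a low-count filter and without deficient mouse 1. Those fits called 601, 558 and 1101 of all genes higher, against 371 in the main fit.

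Slit2, the ligand best known for repelling commissural and retinal axons, had 49.6, 63.6 and 50.3 CPM in deficient mice, against 49.1, 53.2 and 55.9 CPM in wild-type mice. Slit3, also made outside the nervous system, had 41.6, 46.7 and 48.4 CPM in deficient mice, against 44.4, 39.9 and 45.9 CPM in wild-type mice. For these ligands the genotypes overlapped, with log2 fold changes of 0.05 ± 0.10 for Slit2 and 0.07 ± 0.08 for Slit3 (SE). The sign of Slit2 turned without deficient mouse 2, to -0.08.

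Of the srGAPs, Srgap1 was lower in every deficient mouse. It had 33.1, 28.7 and 32.9 CPM in deficient mice, against 38.3, 39.3 and 39.0 CPM in wild-type mice, so that the wild-type mice lay close together and all deficient mice lay below them. The means were 31.6 ± 2.52 CPM in deficient and 38.9 ± 0.54 CPM in wild-type mice (SD, n = 3 each), a log2 fold change of -0.30 ± 0.07 (SE), past the threshold with all mice. When 1 mouse was left out the value lay between -0.33 and -0.23, and it passed in 1 of the 6 fits, the one without deficient mouse 1. That fit called 997 of all genes lower, against 375 with all mice. Srgap1 also missed the threshold with offsets for GC content and transcript length (-0.25).

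Srgap2 had 131.5, 97.5 and 132.1 CPM in deficient mice, against 140.6, 147.9 and 146.4 CPM in wild-type mice. All deficient mice lay below all wild-type mice, and deficient mouse 2 was far below the other deficient mice. The log2 fold change was -0.27 ± 0.11 (SE), without passing, and -0.14 without deficient mouse 2. In the authors' deposited table the p-value of Srgap2 is NA, as for 52 of 21087 rows with a fold change. Srgap3, also known as WRP and abundant in neurons, had 470.1, 463.8 and 502.0 CPM in deficient mice, against 486.1, 469.8 and 485.1 CPM in wild-type mice. The genotypes overlapped closely, with a log2 fold change of -0.0052 ± 0.048 (SE). Deficient mouse 2 was the lowest mouse for each srGAP gene and for the cerebellar markers, whose mean deviation there was -2.33 on the log2 scale, against 0.46 and -0.05 in deficient mice 1 and 3 and 0.58, 0.59 and 0.75 in wild-type mice. The part of the cerebellar markers in the Srgap1 and Srgap2 values was not tested.

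**Figure D3:**
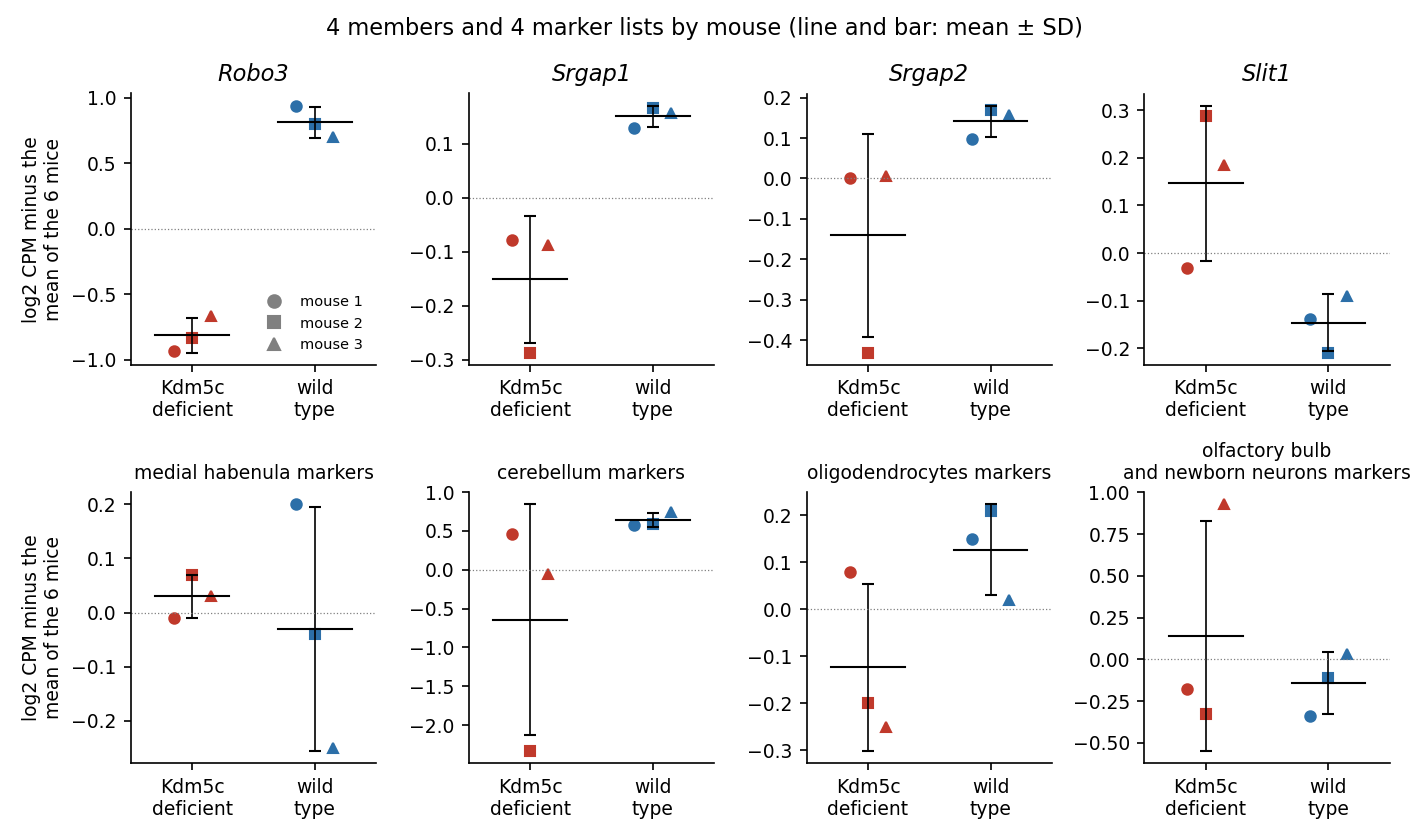
Deviation of log2 CPM from the mean of the 6 mice for Robo3, Srgap1, Srgap2 and Slit1 (upper row) and, averaged over genes, for 4 marker lists (lower row), deficient mice left of wild-type mice, 1 point per mouse, line and bar for mean ± SD. Deficient mouse 2 (square) is lowest in Srgap1, Srgap2 and the cerebellar list (-2.33), and lies between the other deficient mice in Robo3.

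Over all 15127 genes 4.93% passed the threshold, 2.45% higher and 2.48% lower in deficient brain. Of the 10 members, Robo3 and Srgap1 passed, 2 lower, and 0 passed higher by edgeR and limma-voom. DESeq2 also called Slit1 higher, as it did 601 of all 15127 genes. At an unadjusted p of 0.05, which 24.9% of all genes passed, there were 2 higher (Robo2 and Slit1) and 3 lower members. Since the members were chosen with this contrast in view, these counts are not read against the background. The genotypes did not overlap in 4 members (Robo3, Slit1, Srgap1 and Srgap2), beside 30.8% of all genes tested. The median log2 fold change of the members was 0.022, beside 0.0012 over all genes. Robo3 apart, no member had a log2 fold change above 0.30 in size.

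**Figure D4:**
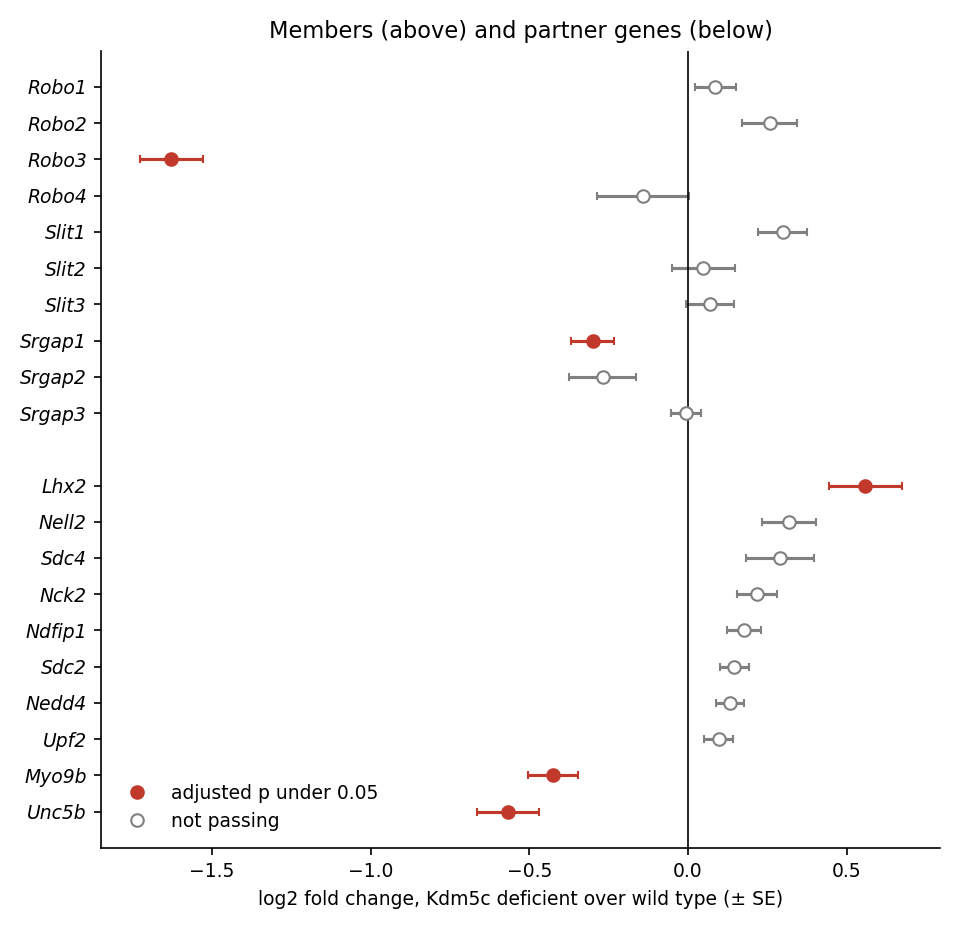
Log2 fold change, Kdm5c deficient over wild type, with SE, for the 10 members (above) and the 10 named partner genes (below), filled where the adjusted p was under 0.05. Robo3 stands at -1.63, and all other members lie between -0.30 and 0.30.

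Levels per length spanned a wide range. In wild-type mice Srgap3 stood highest at 54.1 ± 1.03 CPM per kb of its longest transcript (SD, n = 3), followed by Srgap2 (18.1), Robo2 (15.5), Slit1 (14.6), Robo1 (9.38), Slit3 (8.30), Slit2 (5.30), Srgap1 (4.99), Robo3 (4.60) and Robo4 (1.35). Within this order the wild-type ranges of Robo2 and Slit1, of Slit2 and Srgap1, and of Srgap1 and Robo3 overlapped, and the other neighbours did not. By the longest transcript Robo3 was thus level with Srgap1 and Slit2 in wild-type brain, in the 40.7th percentile of all tested genes with a known length. In deficient brain Robo3 stood at 1.49 ± 0.14 CPM per kb (SD, n = 3), beside Robo4 at 1.22 ± 0.17, where the mice spanned 1.36 to 1.64 for Robo3 and 1.03 to 1.36 for Robo4 and the ranges just missed each other. The order of the Slit genes, Slit1 above Slit3 above Slit2, was the same in both genotypes. With the mean length of the annotated transcripts in place of the longest, Slit3 moved above Robo1 and the other ranks stayed. By that length Robo3 was no longer level with Srgap1 and Slit2, at wild-type means of 6.69, 10.1 and 16.7 CPM per kb.

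**Figure D5:**
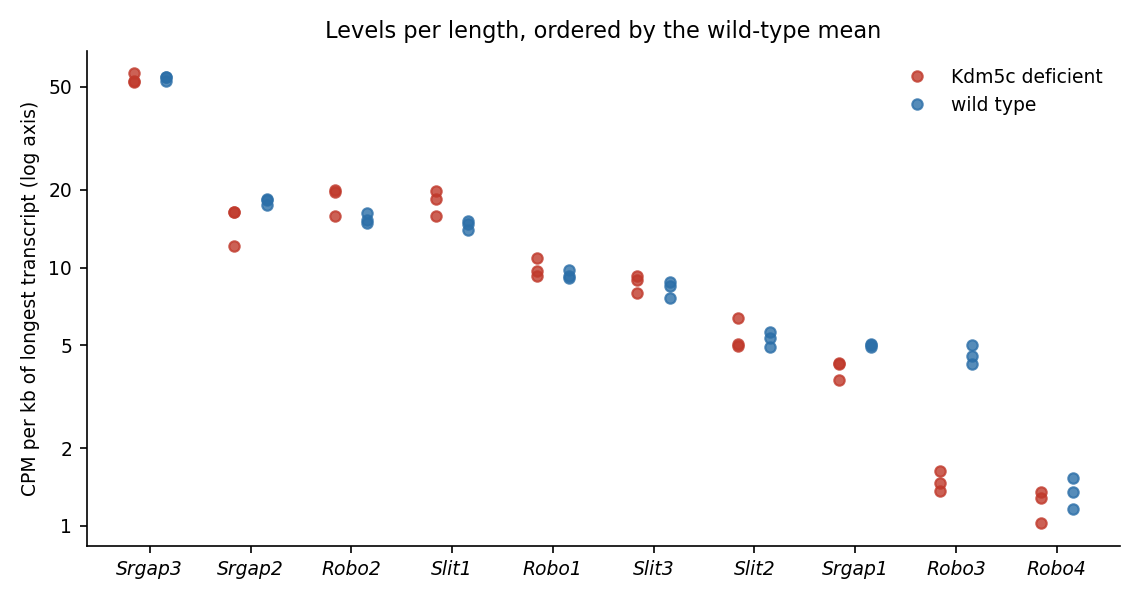
CPM per kb of the longest annotated transcript on a log axis, genes ordered by the wild-type mean, deficient mice (red) left of wild-type mice (blue). Robo3 lies at 4.24 to 5.01 in wild-type mice near Srgap1 and at 1.36 to 1.64 in deficient mice near Robo4.

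A further 53 genes that act with Slit and Robo proteins were listed, of which 51 had enough reads to be tested. Of these 1 was higher and 2 were lower in deficient brain, beside 2.45% and 2.48% of all genes, and their median log2 fold change was 0.036, beside 0.0012. The gene that passed among 5 regulators of Robo RNA was Lhx2, a LIM homeodomain factor that acts on Robo gene expression in developing mouse commissural and thalamic neurons. Lhx2 had 43.0, 55.0 and 50.2 CPM in deficient mice, against 34.5, 28.5 and 37.5 CPM in wild-type mice. All deficient mice lay above all wild-type mice, at 0.56 ± 0.11 on the log2 scale (SE, adjusted p = 0.0341 by edgeR). The other tested regulators, Lhx9, Msi1, Upf1 and Upf2, did not pass. Upf2, a factor of nonsense-mediated decay that acts on a Robo3 isoform in mouse commissural axons, had 0.10 ± 0.05 (SE, adjusted p = 0.235 by edgeR).

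Among other ligands and receptors, Unc5b, a netrin receptor that also binds Robo4 in blood vessels, was lower. It had 60.6, 44.1 and 52.2 CPM in deficient mice, against 77.0, 78.0 and 77.1 CPM in wild-type mice. The wild-type mice were nearly level and the deficient mice lay below them by varying amounts, at -0.57 ± 0.10 on the log2 scale (SE, adjusted p = 0.0228 by edgeR). Nell2, a secreted ligand of Robo3 in mouse spinal cord, had 574.0, 715.2 and 651.4 CPM in deficient mice, against 537.2, 474.2 and 546.4 CPM in wild-type mice. The genotypes did not overlap, but the log2 fold change of 0.32 ± 0.09 (SE) did not pass (adjusted p = 0.0684 by edgeR), whereas DESeq2 called it.

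Of 17 cytoplasmic signalling genes, Myo9b, an unconventional myosin with a GTPase-activating domain, was lower. It had 49.9, 43.1 and 51.1 CPM in deficient mice, against 65.0, 69.0 and 59.3 CPM in wild-type mice, without overlap (log2 fold change -0.43 ± 0.08, SE, adjusted p = 0.0263 by edgeR). Nck2, an adaptor that links receptors to the actin cytoskeleton, had 0.22 ± 0.06 (SE, adjusted p = 0.0838 by edgeR). The remaining cytoplasmic genes, among them the GTPase genes Rac1 and Cdc42, did not pass. With 1 mouse left out in turn, Lhx2, Unc5b and Myo9b each passed in 2 of 6 fits. Deficient mouse 2, with its low cerebellar markers, lay farthest from the wild-type mice in each of these 3 genes, and without it their log2 fold changes were 0.47, -0.46 and -0.35. The part of the cerebellar markers in these values was not tested further.

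Genes for trafficking of the receptors and for their surface partners did not pass by edgeR. Ndfip1, an adaptor for ubiquitin ligases of the Nedd4 family that lowers surface Robo1 in mouse, stood at 0.18 ± 0.05 on the log2 scale (SE, adjusted p = 0.0887 by edgeR), and DESeq2 called it higher at an adjusted p of 0.04995. The ligase gene Nedd4 had 0.13 ± 0.04 (SE, adjusted p = 0.112 by edgeR). Among heparan sulfate proteoglycans, which hold Slit at the cell surface, Sdc2 had 0.15 ± 0.05 and Sdc4 had 0.29 ± 0.11 (SE, adjusted p = 0.102 and 0.14 by edgeR). By DESeq2, 3 of the 51 partner genes were higher (Lhx2, Nell2 and Ndfip1) and 3 lower (Unc5b, Myo9b and the netrin gene Ntn1). That fit called 601 of all 15127 genes higher and 612 lower, against 371 and 375 by edgeR.

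The genes whose level across the 6 mice was most like that of Robo3 were Rbmx, Cdc25b, Pgm1, Strbp and Plec, with Pearson correlations of log2 CPM of 0.997, 0.995, 0.993, 0.992 and 0.992. Their log2 fold changes were negative and much smaller than that of Robo3, from -0.39 for Cdc25b to -0.23 for Strbp. Rbmx, Cdc25b, Strbp and Plec passed with all mice, and Pgm1 did not (adjusted p = 0.0622 by edgeR). With the replicate number as a block none of these 5 passed. With 1 mouse left out in turn, Rbmx passed in 3 of 6 fits, Cdc25b, Strbp and Plec in 2 each, and Pgm1 in 0. With offsets for GC content and transcript length the calls of Strbp and Plec were lost, at -0.096 and -0.16. The 6 mice share the genotype difference, and 149 of 13961 genes compared had a correlation above 0.95, so that these 5 are the top of a long list.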

How the data were processed

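RNA was measured in brain of 3 Kdm5c deficient and 3 wild-type mice, from TruSeq RNA libraries per the labels' protocols. The authors deposited 1 raw count per gene symbol and mouse, not normalized. They also deposited a mean signal over mice, a log2 fold change (wild type over deficient), its error, its Wald score and its p-value, used here only where named. The submitters' processing notes name DESeq2 and GRCm38. Aligner, counting program and use of strand were not given in the sources used here. Reads of overlapping genes therefore cannot be told apart.

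Genes were kept by edgeR's expression filter (minimum count 10, minimum total 15), scaled by TMM and compared with the quasi-likelihood test of edgeR, adjusting by Benjamini-Hochberg over 15127 genes, at a threshold of 0.05 (R 4.3.3, edgeR 4.0.16, limma 3.58.1, DESeq2 1.42.0). Log2 CPM used a prior count of 0.5. Totals of 20221675 to 24555412 counts set the precision, and ranges cover the 6 mice only. Lengths and positions came from GENCODE M21 (39391 of the table's symbols matched exactly and 951 by synonym), promoters from RefSeq. The fits were tested on simulated data. There edgeR recovered 28% of 1.25-fold, 66% of 1.5-fold, 90% of 2-fold and 94% of 4-fold changes. A small difference that did not pass can therefore be one that the test missed. Alternatives were other scalings, filters and tests, a replicate block, offsets for GC content and length, and leaving out each mouse. Protein sequences were not analysed here.

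The members and lists were chosen with earlier results of these data known. The named genes were Kdm5c, the members, partner genes past the threshold, the 2 of each partner group with the smallest p-values, and the 5 genes most like Robo3 among those with a mean of at least 1 CPM.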

Additional observations from a re-analysis of the deposited data

How the results depend on the processing

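Robo3 kept its direction and its call in all 9 other fits, at log2 fold changes from -1.64 to -1.62. It also kept both in all 6 fits without 1 mouse, from -1.70 to -1.56. Kdm5c stayed short of the threshold in all of these fits. Robo3 was chosen on these same counts, so its calls add no support. Over all genes, 371 were higher and 375 lower. The counts were 558 and 563 with no low-count filter, 601 and 612 with DESeq2, and 49 and 9 with the replicate block. Leaving out 1 mouse gave 38 to 1101 higher genes, with the most without deficient mouse 1 and the fewest without wild-type mouse 1, and 6 to 997 lower genes. Members called higher numbered 1 (Slit1) with no low-count filter and with DESeq2, and 0 to 2 without 1 mouse. Members called lower numbered 1 (Robo3) with the replicate block and with offsets for GC content and length, and 1 to 2 without 1 mouse. Partner genes called higher numbered 2 with no low-count filter, 3 with DESeq2, 0 with the replicate block and 0 to 8 without 1 mouse. Partner genes called lower numbered 0 with the replicate block and 0 to 4 without 1 mouse. The calls of Lhx2, Unc5b and Myo9b were lost without deficient mouse 3 and without each wild-type mouse, in fits that also held fewer mice. Same-numbered mice did not deviate together (correlations of -0.087, -0.085 and 0.17), so the replicate block tests a shared number only. Srgap3, near 0, turned positive with the GC and length offsets (0.048) and in 4 of the 6 fits without 1 mouse, which ran from -0.041 to 0.017. Slit2 turned negative without deficient mouse 2, in fits from -0.078 to 0.11. The cause of these shifts was not tested. Of the 5 genes most like Robo3 by Pearson correlation, 2 had a Spearman correlation of 1, as did 36 of all 13961 genes compared. With Robo4 at 108 to 173 reads per mouse, its SE of 0.15 is the widest of the set.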
